A study of Mus musculus with 9 samples.

Results

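The genes described here are 26 regulators, receptors and effectors of blood formation and of the erythroid, leukocyte and platelet lineages. Their members were the distinct accessible regions that the control list assigned to 1 of these 26 gene symbols. The list held 25 such regions of 17164 distinct regions, at 13 of the 26 genes, and 13 genes had no assigned region. Accessibility was measured by ATAC-Seq, which cuts and tags open chromatin with the transposase Tn5. The tissue was pharyngeal mesoderm together with heart, dissected from embryos of the mouse with 6 somites (E8.75). The study compared wild-type embryos with embryos lacking the LIM-homeodomain factor Isl1 (genotype Isl1-/-) and with Isl1Cre+/-/ Brg1fl/fl embryos, in which Cre expressed from Isl1 deletes the chromatin remodeler subunit Brg1 in the cells that express it, with 3 libraries in each of the 3 groups. The values used here were those of the wild-type control group, as 1 list of regions common to its 3 libraries; the 2 mutant groups were not analysed here, so no comparison between genotypes was made.

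The list gives for each region its position, its distance to the assigned transcription start site (TSS), a transcript and a gene symbol. It gives no height and no value per library. There is therefore no replicate error and no test, the read depth is unknown, and all shares below are descriptions with exact (Clopper-Pearson) 95% binomial intervals that cover counting error only. Dissected tissue holds several cell types, so a region open in few cells cannot be told apart from a region weakly open in many.

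In mouse embryos the first blood cells form in the yolk sac and enter the heart once circulation begins, and definitive blood stem cells arise later from hemogenic endothelium. Tal1, Lmo2 and Ldb1 form a complex with GATA factors and E proteins that binds paired E-box and GATA sequences, Runx1 with its partner Cbfb drives the release of blood cells from endothelium, and Klf1 activates globin and red cell membrane genes. Kit, Meis1, Ldb1, Cd44 and Tfrc also act in cells outside the blood, including neural crest, cardiac and proliferating cells.

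The sequences below are examples, the central 200 bp of a few regions, and the motif counts given later use all 25 regions. They are read from the plus strand of NCBIM37 (mm9), with the distance to the assigned TSS in bp after each gene. The first 3 are regions more than 1 kb from the TSS, shown for the blood factor motifs they hold. For Ikzf2 and Meis1 the region beyond 1 kb with the most kinds of these motifs was taken. The Runx1 region was added after values had been seen. The 3 are therefore not typical of the set in motif content. Capitals mark matches to GATA, RUNX, ETS or E-box letters, as spelled out with the motif results.
Ikzf2 -42162, chr1:69774597-69774796: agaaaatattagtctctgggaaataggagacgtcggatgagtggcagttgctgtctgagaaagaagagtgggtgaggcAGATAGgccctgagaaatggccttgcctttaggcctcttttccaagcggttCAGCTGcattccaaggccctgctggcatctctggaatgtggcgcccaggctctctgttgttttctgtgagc
Meis1 -8547, chr11:18927420-18927619: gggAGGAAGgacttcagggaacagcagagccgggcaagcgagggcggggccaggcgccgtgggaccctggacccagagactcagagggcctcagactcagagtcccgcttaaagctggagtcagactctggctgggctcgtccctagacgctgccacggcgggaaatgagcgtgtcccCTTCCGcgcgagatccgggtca
Runx1 -57937, chr16:92884157-92884356: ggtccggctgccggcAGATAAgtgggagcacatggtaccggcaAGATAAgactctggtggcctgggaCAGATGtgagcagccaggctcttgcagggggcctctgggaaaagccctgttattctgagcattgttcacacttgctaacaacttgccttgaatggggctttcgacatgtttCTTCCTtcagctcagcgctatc

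The next 4 lie at a start or in an exon and are shown for their CpG content. The CpG frequency compared across all 26 genes was taken in another window, within 500 bp of annotated starts. Capitals mark CG dinucleotides, 17 in Lmo2, 15 in Runx1, 23 in Tal1 and 20 in Klf1.
Lmo2 34, chr2:103809649-103809848: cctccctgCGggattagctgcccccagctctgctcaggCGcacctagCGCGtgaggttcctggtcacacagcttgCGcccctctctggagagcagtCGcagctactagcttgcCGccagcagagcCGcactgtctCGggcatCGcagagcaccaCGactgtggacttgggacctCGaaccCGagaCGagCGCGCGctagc
Runx1 -452, chr16:92697927-92698126: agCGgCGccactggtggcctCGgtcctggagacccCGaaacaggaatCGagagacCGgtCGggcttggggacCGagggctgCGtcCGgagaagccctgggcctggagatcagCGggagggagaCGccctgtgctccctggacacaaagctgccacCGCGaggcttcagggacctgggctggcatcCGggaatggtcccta
Tal1 5380, chr4:114735697-114735896: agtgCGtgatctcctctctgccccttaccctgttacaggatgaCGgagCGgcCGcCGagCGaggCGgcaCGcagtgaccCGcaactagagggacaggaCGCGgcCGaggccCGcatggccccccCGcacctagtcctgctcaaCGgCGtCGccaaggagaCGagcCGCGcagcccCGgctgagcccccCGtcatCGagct
Klf1 1190, chr8:87426918-87427117: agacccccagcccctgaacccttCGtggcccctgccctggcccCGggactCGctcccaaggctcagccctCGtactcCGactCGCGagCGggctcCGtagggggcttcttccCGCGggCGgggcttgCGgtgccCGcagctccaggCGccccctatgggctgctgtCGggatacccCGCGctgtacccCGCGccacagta

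A region was assigned to 13 of the 26 genes (50.0%, interval 29.9 to 70.1%), beside 49.3% of all 21031 protein-coding genes with a curated transcript. A region within 1 kb of the TSS, called a promoter region below, was present at 9 of the 26 genes (34.6%, 17.2 to 55.7%), beside 40.6% of coding genes. Both shares were near the background. Of the 25 regions, 9 (36.0%) lay within 1 kb of the TSS, compared with 52.9% of all regions, a value below the upper bound of 57.5% for the set. The other 16 lay from 1190 bp to 460819 bp away, and 4 of the 25 lay beyond 100 kb, beside 14.9% of all regions.

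**Figure D1:**
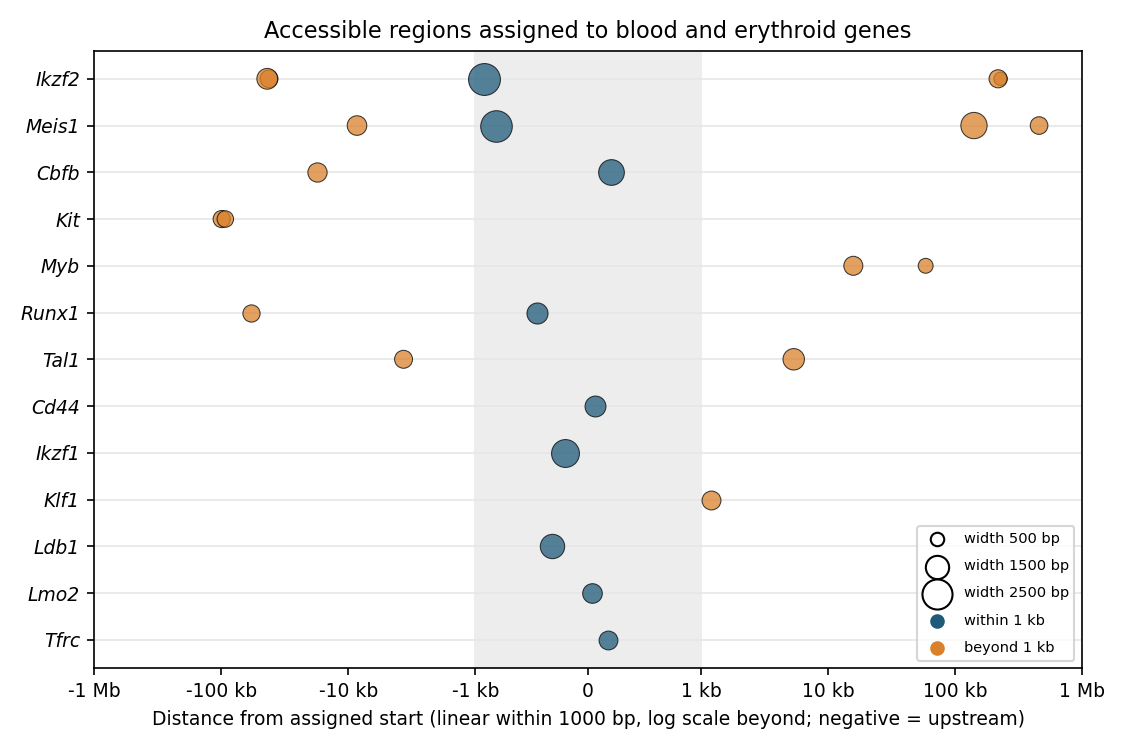
Distance of each assigned region from its TSS for the 13 genes with a region, in order of their number of regions. The axis is linear within 1 kb (grey) and logarithmic beyond it, the area of each point is proportional to region width, and 9 regions lie inside the grey band and 16 outside it.

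By lineage, a region was present at 8 of the 14 blood-forming factors including the receptor Kit (57.1%, 28.9 to 82.3%), at 2 of the 6 erythroid genes (33.3%, 4.33 to 77.7%) and at 3 of the 6 leukocyte, platelet and lymphoid genes (50.0%, 11.8 to 88.2%). The promoter counts were 5 of 14, 1 of 6 and 3 of 6. The intervals of the 3 groups overlapped widely, and the groups cannot be ordered from these counts. Among the genes with a region, 6 had 1, 5 had 2, Meis1 had 4 and Ikzf2 had 5. Of all genes in the list 73.2% had 1 region, 5.29% had 4 or more and 2.61% had 5 or more.

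The partners of the Tal1 complex differed in where their regions lay. Tal1, the bHLH factor required for all blood lineages, had no promoter region. Its 891-bp region lay 3674 bp upstream of the outermost start, and its 1271-bp region lay 5380 bp downstream, in a Tal1 exon with 6.77 CpG per 100 bp. The distance of 5380 bp was taken from a start 1385 bp downstream of the outermost one. The annotated Tal1 start nearest to this region was 3683 bp away. Of 7 regions within 100 kb of a Tal1 start, 5 were assigned to the neighbors Cmpk1, Cyp4x1, Pdzk1ip1 and Stil, so most of the nearby open regions were not counted for Tal1.

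Lmo2, the LIM-only bridge of the complex, had a single 1065-bp region at +34 bp (chr2:103809216-103810280). The start used lies 11571 bp downstream of the outermost annotated Lmo2 start, so the open site was at an internal promoter. Ldb1, the dimerizing cofactor shared with Isl1, had 1 region of 1641 bp at -316 bp. That region also covers an annotated start of Pprc1, and it cannot be attributed to only 1 of the genes. Lyl1, the close relative of Tal1, had no region, and the nearest one lay 44327 bp from its start and was assigned to Nfix.

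In the RUNX family, regions were assigned to Runx1 and to the shared partner Cbfb but not to Runx2 or Runx3. The Runx1 region of 1227 bp (chr16:92697413-92698639) lay at -452 bp from a start 128737 bp downstream of the outermost start, which is the proximal promoter, inside the gene. The distal promoter of Runx1, used in definitive blood cells, had no region within 1 kb, and the 821-bp region 57937 bp upstream was measured from that distal start. Cbfb had a promoter region of 1829 bp at +203 bp, with 9.79 CpG per 100 bp, and an 1029-bp region 17632 bp upstream. Runx2, the bone regulator, had only a Supt3 region in its gene body, 36864 bp from a start, whereas the region nearest to Runx3, assigned to Clic4, was 118186 bp away.

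Meis1, a TALE homeodomain factor of blood stem cells that is also active in the heart and limb, had 4 regions with 6589 bp in all (gene at chr11:18780433-18918961, minus strand). The promoter region, chr11:18918407-18921168, was 2762 bp wide at -815 bp, wider than 98.4% of all promoter regions. The region at -8547 bp (chr11:18926990-18928049) was 1060 bp wide and held 4.81 CpG per 100 bp. The region at +141537 bp (chr11:18776481-18778390) was 1910 bp wide, more than 96.7% of regions beyond 1 kb, and lay 2998 bp past the 3' end of the gene, where Gm16140 has the nearest coding start. The fourth, at +460819 bp (chr11:18457725-18458581), was 857 bp wide and lay 322280 bp past the 3' end, so its assignment to Meis1 rests on the deposited symbol.

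Ikzf2, which encodes the lymphoid zinc-finger factor Helios, had 5 regions with 6273 bp in all (gene at chr1:69577788-69732534, minus strand). The widest of all 25 regions, chr1:69732052-69734863, was its 2812-bp region at -923 bp, wider than 98.5% of promoter regions. The 875-bp and 1195-bp regions 42162 bp and 43516 bp upstream (chr1:69774259-69775133 and chr1:69775453-69776647) were separated by 319 bp. The remaining regions, 905 bp and 486 bp wide, lay 64351 bp and 74427 bp past the 3' end (chr1:69512985-69513889 and chr1:69503119-69503604). In the 486-bp region 21.5% of all 31-base words have another copy in the genome, the highest share of the 25 regions, and its part in the call was not tested.

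Kit, the receptor for stem cell factor, had 2 regions of 816 bp and 752 bp at 99451 bp and 93161 bp upstream and none nearer to its start. In the 752-bp region 8.03% of 31-base words were repeated. Myb, a regulator of definitive progenitors, likewise had no promoter region. Its 998-bp region at +15861 bp was centered 29 bp from a start of the overlapping gene Gm16786, and its 613-bp region lay 22831 bp past the 3' end.

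Ikzf1, encoding the lymphoid factor Ikaros, had 1 promoter region of 2151 bp at -204 bp, which also covers a start of Gm11999. The adhesion receptor Cd44 had 1 region of 1207 bp at +57 bp with 2.49 CpG per 100 bp, the lowest of the 9 promoter regions.

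The promoter regions of the set were 981 bp to 2812 bp wide with a median of 1641 bp (order-statistic 95% interval 1065 to 2762 bp, n = 9), and 5 of the 9 were wider than the median of all promoter regions, 1294 bp. The regions beyond 1 kb had a median of 898 bp (816 to 1060 bp, n = 16; range 486 to 1910 bp), beside 950 bp for all regions beyond 1 kb. Both background medians lay within these intervals. Per the paper's methods, a minimal overlap between libraries was enough for a region to be kept. A width therefore need not be that of the stretch shared by all libraries.

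**Figure D2:**
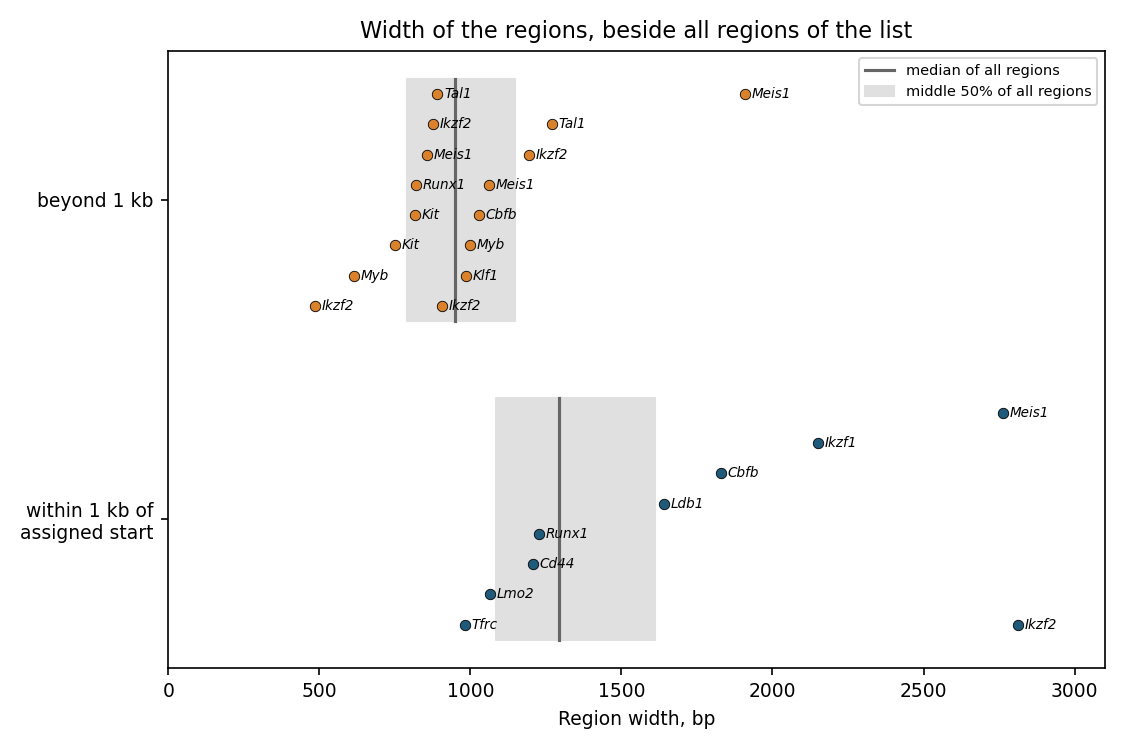
Width in bp of the 25 regions by distance class, each point 1 region labelled with its gene. The grey bands and lines give the middle 50% and the median of all regions of the same class; the promoter regions of Ikzf2 and Meis1 lie farthest to the right, at 2812 and 2762 bp.

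Among the erythroid genes, a region was assigned to Klf1 and to Tfrc. The Klf1 region, chr8:87426524-87427510, was 987 bp wide and lay 1190 bp downstream of the start, in a Klf1 exon with a GC content of 68.0% and 8.71 CpG per 100 bp. No region covered the Klf1 start itself, where the CpG frequency was 0.5 per 100 bp. Tfrc, the transferrin receptor that most dividing cells use for iron uptake, had a 981-bp region at +172 bp, the narrowest of the promoter regions.

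The other 4 erythroid genes had no assigned region. Nfe2 (chr15:103078643-103088834), the bZIP factor of globin and platelet genes, had 7 regions within 100 kb, all assigned to other genes, the nearest 14398 bp away at Copz1. The erythropoietin receptor gene Epor (chr9:21763343-21768020) had its nearest region 26676 bp away, at Plppr2. For Alas2 (chrX:146981918-147005181), the erythroid enzyme of the first step of haem synthesis, the nearest region lay 21931 bp away, at Apex2. The band 3 anion exchanger gene Slc4a1 (chr11:102210138-102227517) had the nearest region 42397 bp away, at Slc25a39.

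The genes without a region also included the repressors Gfi1 and Gfi1b, the homeobox gene Hhex, the myeloid factor Spi1 (PU.1), the leukocyte phosphatase Ptprc (CD45) and the platelet integrin Itga2b (CD41). The region nearest to a start lay 126082 bp away at Gfi1, 32385 bp at Gfi1b, 56637 bp at Hhex, 12062 bp at Spi1 and 129537 bp at Ptprc. The gene body of Spi1 held 1 region, which was assigned to Mybpc3. No region at all lay within 100 kb of Runx3, Gfi1 or Ptprc. For Itga2b a region lay 209 bp from an annotated start, within its gene body, and was assigned to Fam171a2 at -8318 bp. The absence of a region in this list means that it was not called in all 3 libraries, not that the chromatin was closed.

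The promoters were also compared by CpG frequency, the number of CG dinucleotides per 100 bp within 500 bp of an annotated start, taking the highest of a gene's starts. CpG-rich promoters are open in many cell types, whereas CpG-poor promoters tend to open in particular lineages. The 9 genes with a promoter region had a median of 8.39 (2.1 to 14.4) and the 17 without had 3.3 (0.5 to 13.0), ranges that overlapped. With the mean over a gene's starts in place of the highest, the medians were 4.48 and 2.65, and the gap was smaller. In all coding genes the medians were 6.99 with and 1.9 without a region within 1 kb. In deciles 6 to 10 of coding genes by CpG frequency, 6 of 12 genes of the set had a promoter region (Lmo2, Runx1, Cbfb, Ikzf1, Tfrc and Ldb1; interval 21.1 to 78.9%), beside 72.7% of coding genes. Without a promoter region there were Runx3 at 13.0, Runx2 at 10.7, Myb at 9.29, Kit at 7.39, Tal1 at 6.69 and Gfi1 at 5.59. In deciles 1 to 4, 2 of 12 had one, Ikzf2 and Cd44 (2.09 to 48.4%), beside 12.2% of coding genes. In decile 5 Meis1 had one and Itga2b had none assigned, beside 61.6% of coding genes. The background counts any annotated start, by which Itga2b also had a region.

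These values depend on which starts are annotated. The highest frequency within 3 kb of a start was 10.9 at Ikzf2, centered at -1600 bp, 8.79 at Klf1, centered at +1200 bp, and 13.0 at Hhex, centered at +2100 bp. Alas2 and Ptprc stayed low, at 1.2 and 1.3.

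**Figure D3:**
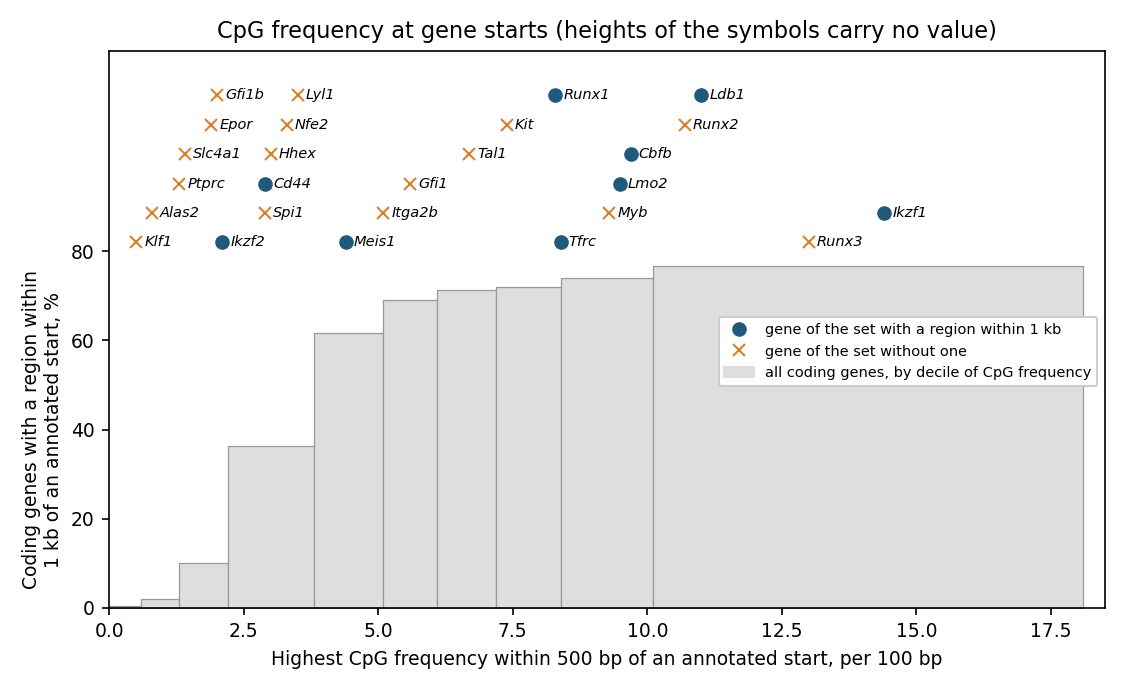
CpG frequency at the starts of the 26 genes, marked as with (circles) or without (crosses) an assigned region within 1 kb, above the share of all coding genes with a region in each decile of CpG frequency (grey bars). Circles and crosses occur on both sides of the axis, and the bars rise from 0.395% in decile 1 to 76.8% in decile 10.

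By place, 13 of the 16 regions beyond 1 kb were intergenic (81.2%, 54.4 to 96.0%), 3 had their midpoint in an exon (18.8%, 4.05 to 45.6%) and 0 in an intron, which allows up to 20.6%. For all 8081 regions beyond 1 kb the shares were 57.0% intergenic, 6.62% exon and 36.4% intron, so the intron share of all regions was above the bound of the set. The exon regions were those of Klf1, Tal1 and Myb. Several regions share a gene, so the 16 are not independent. The bound does not account for this, and the place of all regions was counted after values had been seen. No conclusion is therefore drawn from the bound. Upstream and downstream regions were equal in number, with 8 of 16 upstream (50.0%) beside 45.5% of all.

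Short motifs of blood factors were counted on both strands of the central 300 bp. GATA was AGATA or TGATA followed by A or G. RUNX was TGTGGT, or TGCGGT with a CG inside. ETS was GGAAG preceded by A or C. The E-box was CAGCTG, and also CAGATG as bound by Tal1 dimers. KLF was CACCC preceded by CCA or by CCG. The MEIS letters were TGACAG, and those of Isl1 were CTAAT followed by GG or by TG. Neighboring matches of different motifs can share bases. Of the 16 regions beyond 1 kb, 2 held GATA letters (12.5%, 1.55 to 38.3%), beside 35.0% of all regions beyond 1 kb. They were the Runx1 region 57937 bp upstream, with 3 matches, and the Ikzf2 region 42162 bp upstream, with 1. RUNX letters were in 4 (25.0%; 22.2% of all), ETS in 7 (43.8%; 42.2%), E-box in 5 (31.2%; 40.0%), MEIS in 1 (6.25%; 23.3%) and KLF in 0 (3.27% of all).

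The Isl1 letters were in 3 of the 16 (18.8%, 4.05 to 45.6%), in the upstream Cbfb region, the Kit region 93161 bp upstream and the Myb region past the 3' end, beside 6.35% of all. CTG followed after 7 or 8 bases by GATA, a loose form of the paired E-box and GATA arrangement, was in 1 of 16, beside 4.94% of all. That was the Klf1 region, which held no match to the full GATA or E-box letters given above. In the central 300 bp each background share fell inside the interval of the set. A match of these letters is not a bound site. In the 9 promoter regions, GATA letters were in 1, the Ikzf2 region with 2 matches (11.1%; 11.4% of all promoter regions), and Isl1 letters in 1, at Lmo2 (11.1%; 1.83%). RUNX letters were in 2 (22.2%; 20.8%), ETS in 4 (44.4%; 49.5%), E-box in 1 (11.1%; 23.3%), KLF in 1 (11.1%; 6.94%) and MEIS in 0 (14.3% of all), and here too each background share lay inside the interval of the set.

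**Figure D4:**
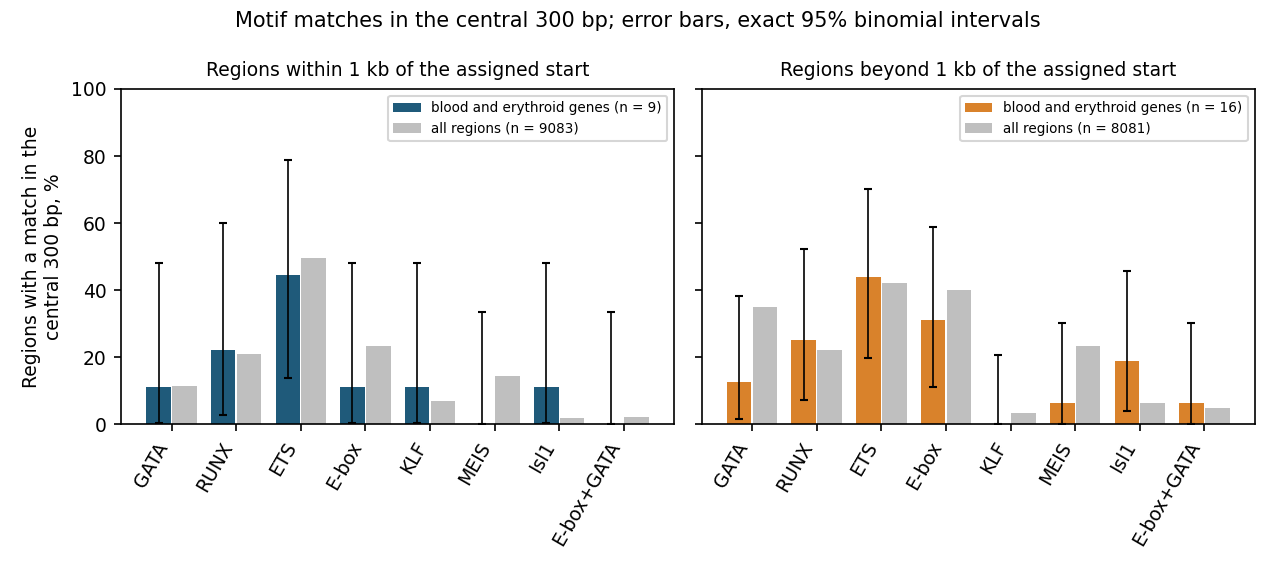
Share of regions with at least 1 motif match in the central 300 bp, for the regions of the set (colored bars, exact 95% intervals) and all regions (grey bars), within 1 kb (left) and beyond 1 kb (right). The grey bars lie within the error bars, GATA beyond 1 kb being at 12.5% in the set and 35.0% in all.

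Further genes of red cell function were examined as lists. None of the 7 globin genes had a region, beside 49.3% of coding genes. The nearest to an alpha globin gene was the region at the start of Nprl3, whose introns hold the alpha globin enhancers, 8734 bp from Hba-x, and the nearest to the beta globin genes lay 59989 bp from Hbb-y. Of the 9 haem synthesis enzymes and transporters, 8 had a promoter region (Alas1, Alad, Uros, Cpox, Ppox, Fech, Slc25a38 and Slc25a37), beside 40.6% of coding genes. Only Urod had none. The lists also differed in CpG frequency at their starts, with a median of 0.799 for the globin genes and 6.69 for the haem list. In the deciles that hold these medians, 1.92% and 71.4% of coding genes had a region within 1 kb of an annotated start. The counts are therefore not read as particular to red cell function. The ubiquitous Alas1 had a region at +94 bp, and erythroid Alas2 had none. Of 11 red cell membrane genes, 5 had a region (Sptb, Ank1, Epb41, Gypc and Rhag), 45.5% beside 49.3% of coding genes. Of them, 2 (Sptb and Epb41) had one within 1 kb, 18.2% of the list beside 40.6%.

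A list of 11 genes held the blood GATA factors Gata1 and Gata2 and 9 genes of their partners and relatives. Gata1 and Gata2 had no region, and neither did Cbfa2t3 or Ssbp4. The other 7 had one (63.6%, beside 49.3% of coding genes): Zfpm1, Lmo4, Tcf3, Tcf4, Tcf12, Ssbp2 and Ssbp3. Of the 11, 5 had one within 1 kb (45.5%, beside 40.6% of coding genes). Their median CpG frequency at the starts was 11.3 over the list. In the decile that holds this median, 76.8% of coding genes had a region within 1 kb of an annotated start. The GATA cofactor gene Zfpm1 had regions at -493 bp and +12398 bp. All of these lists are small, and no list was tested against the others.

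**Figure D5:**
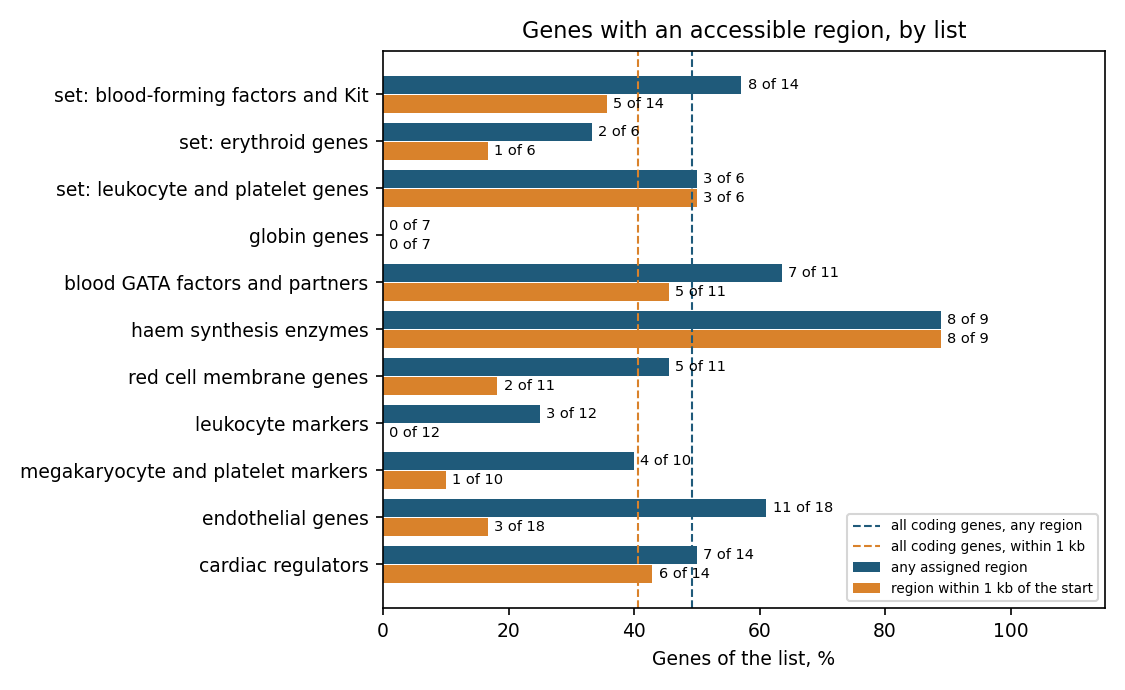
Percentage of genes with any assigned region (blue) and with a region within 1 kb of the TSS (orange) in 3 groups of the set and 8 other lists, with counts beside the bars. Dashed lines mark all coding genes, at 49.3% and 40.6%; the globin list is at 0 and the haem synthesis list at 8 of 9.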

How the data were processed

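The authors prepared ATAC-Seq libraries of dissected heart and pharyngeal mesoderm, 3 for each of 3 genotype groups named in the labels. Per the paper's methods, the authors mapped reads to mm9 with bowtie2, removed duplicates with Picard 1.136, called peaks per library with MACS14 without a model and with a shift of 100 bp, removed blacklisted peaks, and kept regions common to the 3 control libraries with bedtools v2.15. The deposited columns are start and end in bp, distance to the TSS in bp, transcript and symbol. The tool that assigned genes is not given in the sources used here. Because no Tn5 offset is given, the edges of a region do not mark insertions. No column was left unmapped (0 columns).

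The 26 genes and all gene lists were chosen with earlier results of these data known. The 17432 rows gave 17164 distinct regions, taken as 1-based. Gene names were matched by accession for 11161 of 11541 transcripts to a GRCm38.p6 table used for names only; sequence and gene models came from NCBIM37 with GENCODE. Every gene of the set is named, those with at least 3 regions and 5 erythroid genes in full. Shares carry exact binomial intervals and medians order-statistic intervals (Python 3.11.15, scipy 1.17.1, numpy 2.4.6, pandas 2.3.3). No tests were made. The scans were checked on simulated data. After the counts had been made, 2 genes outside the set were taken out of the lists, for a reason unrelated to their values, and are not reported here.

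After values had been seen, the following were added: the ranking of CpG frequency among 20269 curated coding genes in place of 22225 annotated coding names, the CpG classes, the CpG search within 3 kb, the place of all regions beyond 1 kb, the 31-base repeat count, the sequences of the Runx1 region beyond 1 kb and of the Tal1 and Klf1 exon regions, and the CG capitals.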

Additional observations from a re-analysis of the deposited data

How the results depend on the processing

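With 40 alternatives in all, 27 kept their value within 1.5 times for counts or within the interval for shares and medians. Keeping only regions of the median width of all regions (1123 bp) or more left 8 genes, 10 regions and 70.0% of regions within 1 kb, since fewer regions were counted and promoter regions are wider. Counting any region within 100 kb of a start, whatever its symbol, gave 23 of the 26 genes. Shares over all genes or all regions under the wider-region rule or the 100 kb rule are not given here. The values under these rules are therefore not read as particular to the set. Searching whole regions, which are longer than 300 bp, raised the shares beyond 1 kb to 62.5% for GATA (77.7% of all regions beyond 1 kb), 81.2% for ETS (78.9%), 81.2% for E-box (74.8%) and 50.0% for MEIS (54.6%). In the central 150 bp they were 18.8% for ETS (24.5%) and 0.0% for MEIS (12.6%). Assigning regions to the nearest annotated coding start gave 14 genes and 25 regions. Itga2b gained 1, and Meis1 went from 4 to 3: the 2 regions at its far 3' side went to Gm16140 and 1 region of another symbol was gained. The median CpG frequency of genes with a promoter region fell from 8.39 to 4.48 with the mean over starts, within its interval but by more than 1.5 times.

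The ranking of CpG frequency was first made over all annotated coding names, and curated genes were chosen after seeing the data. Over all names, the share of genes with a region within 1 kb was 71.7% in deciles 6 to 10, 54.3% in decile 5 and 7.81% in deciles 1 to 4, and the genes of the set with a promoter region were 6 of 13, 1 of 3 and 2 of 10.

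No paired analysis was possible because the list holds no value per library. Leaving out a replicate and a stricter peak threshold were not run for the same reason. Depth is unknown, so a missing region shows only that it was not called in all 3 libraries.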

Other observations

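Markers of other cell types that such tissue could hold were read from the same list. Of 18 endothelial genes, 11 had a region (Kdr, Flt1, Flt4, Cdh5, Tek, Emcn, Fli1, Etv2, Sox17, Sox18 and Esam), with 19 regions. Pecam1, Tie1, Eng, Erg, Sox7, Nos3 and Cldn5 had none. The share was 61.1%, beside 49.3% of all coding genes. Of the 11, 3 (Kdr, Flt1 and Flt4, the VEGF receptors) had a region within 1 kb, 16.7% of the list beside 40.6% of coding genes. Of 14 cardiac regulators, 7 had a region (50.0%), with 22 regions in all, of which 9 were assigned to Isl1. A region within 1 kb was present at 6 of the 7 (42.9% of the list). Both shares were near those of all coding genes. Nkx2-5, Gata6, Tbx1, Tbx2, Tbx5, Hand1 and Smarcd3 had no region, so genes of the dissected tissue were also missing from the list.

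Of 12 leukocyte markers, Adgre1, Cd14 and Fcgr3 had a region and 0 had one within 1 kb, the Cd14 region being at 1017 bp. Of 10 megakaryocyte and platelet markers, Itgb3, Gp1bb, Vwf and Tubb1 had a region, and Itgb3 at +205 bp was within 1 kb. Any region was thus present at 25.0% of the leukocyte and 40.0% of the platelet list, beside 49.3% of coding genes. Within 1 kb, the platelet share was 10.0%, beside 40.6% of coding genes. Both lists were CpG-poor, with medians of 1.45 (leukocyte) and 1.4 (platelet) per 100 bp. Only 10.1% of coding genes in the decile holding both values were open within 1 kb of a start. These low counts are therefore not read as particular to either lineage. The contribution of blood cells to these libraries was not tested.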
